A study of Rattus norvegicus with 6 samples.

Results

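The circadian clock genes were examined as a set of 10 genes: the activators Arntl, Clock and Npas2, the repressors Per1, Per2, Per3, Cry1 and Cry2, and the output and second-loop genes Dbp and Nr1d1. They were chosen by name, each symbol matched 1 row among the 34225 gene rows, and all 10 passed the filter on low counts that left 16398 genes for testing. RNA was sequenced from whole back skin of Sprague-Dawley rats in 3 groups of 2 libraries, all labelled wild-type. The untreated group received no inhibitor. The gefitinib group was dosed by mouth with 80 mg/kg each day, and the afatinib group with 30 mg/kg each day, in both cases until a rash appeared. Gefitinib and afatinib inhibit the epidermal growth factor receptor (EGFR), a receptor kinase of the basal epidermis and hair follicle, and the series title names the rash that these drugs cause. The doses differ, the labels name neither the days to rash nor the hour at which skin was taken, and nothing states whether the 2 libraries of a group came from separate animals. The p-values below therefore measure the spread between these libraries, which may be technical.

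The mammalian clock is a loop of transcription and repression that runs in nearly every cell, including those of the epidermis, the hair follicle, the dermis and skeletal muscle. ARNTL (also called BMAL1) pairs with CLOCK or NPAS2 and binds E-box sequences, switching on the Per and Cry genes, whose proteins return to block the pair. The same pair drives Nr1d1, which encodes the repressor REV-ERB alpha; this protein competes with ROR activators at ROR elements (ROREs), among them those of Arntl. Dbp is a direct E-box target whose protein binds D-boxes in further genes. In a running clock Arntl peaks when Dbp and Nr1d1 are low, so levels of these genes in a single sample depend on the hour as well as on the tissue.

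The elements named here were looked for in the promoters. RefSeq promoter windows (assembly GRCr8) were found for 9 of the 10 genes, with Cry1 missing, and the 250 bases before each start were searched on both strands. Sequences of 3 genes are shown because they carry 1 example each of the sites described above: a RORE in Arntl (chr1:176766078-176766327, + strand), a D-box and an E-box variant in Per2 (chr9:99496994-99497243, - strand) and an E-box in Nr1d1 (chr10:84229455-84229704, - strand, the second of its 2 windows). Each reads 5′ to 3′ and ends at the base before the start, with the matched motif in capitals.
Arntl: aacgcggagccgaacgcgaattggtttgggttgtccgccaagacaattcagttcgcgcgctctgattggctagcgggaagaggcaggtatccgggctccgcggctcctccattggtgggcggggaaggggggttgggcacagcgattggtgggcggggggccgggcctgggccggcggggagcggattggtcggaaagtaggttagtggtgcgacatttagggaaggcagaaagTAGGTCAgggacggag
Per2: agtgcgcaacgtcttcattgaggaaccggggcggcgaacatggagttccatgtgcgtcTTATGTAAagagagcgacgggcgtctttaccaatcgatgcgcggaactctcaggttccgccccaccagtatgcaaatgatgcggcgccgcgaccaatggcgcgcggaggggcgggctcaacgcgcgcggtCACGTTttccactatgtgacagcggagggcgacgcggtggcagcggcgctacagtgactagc
Nr1d1: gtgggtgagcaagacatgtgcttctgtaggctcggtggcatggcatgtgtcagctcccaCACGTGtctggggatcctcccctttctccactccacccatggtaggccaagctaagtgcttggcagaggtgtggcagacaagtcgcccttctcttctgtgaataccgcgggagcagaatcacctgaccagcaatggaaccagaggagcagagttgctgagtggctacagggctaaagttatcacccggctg
The Arntl window held the RORE core TAGGTCA with its first base 16 bases before the start. The Per2 window held the E-box variant CACGTT 62 bases and the D-box TTATGTAA 192 bases before the start. The Nr1d1 window held the E-box CACGTG 191 bases before the start. Its other window held the variant AACGTG, which is CACGTT on the opposite strand, 174 bases before its start, and Cry2 held the same variant 212 bases before its start. None of the motifs searched, which also included the cyclic AMP response element TGACGTCA, was found in these windows of Clock, Npas2, Per1, Per3 or Dbp, which says only that these letters are not there. Over all 33469 rat windows of this length, 5.59% held CACGTG, 4.07% held CACGTT, 2.04% held the D-box TTANGTAA, 5.62% held a RORE core (TAGGTCA or TGGGTCA) and 1.59% held TGACGTCA; no motif searched overlaps another in the sequences shown.

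The libraries held between 17206456 and 22086673 counts assigned to genes. The skin was bulk tissue, in which fewer cells of a type and less RNA per cell cannot be told apart. Skeletal muscle genes (13 of 18 markers in the files, none at 0) held 18.1% to 19.8% of counts in untreated skin, 4.90% to 8.60% in gefitinib skin, 15.4% in afatinib replicate 1 and 5.39% in afatinib replicate 2. Hair follicle genes (18 of 19, none at 0) held 0.00689% to 0.0274%, 0.542% to 0.822% and 0.130% to 0.697%, and cell cycle genes (13 of 14, none at 0) held 0.00946% to 0.0142%, 0.119% to 0.133% and 0.0409% to 0.120% in untreated, gefitinib and afatinib skin. Keratinocyte markers (11 of 12, none at 0) were present in every library. They held 0.0789% to 0.129% of counts in untreated skin, 0.305% to 0.352% in gefitinib skin and 0.237% to 0.628% in afatinib skin. The 95% Wilson intervals of the muscle shares, which cover counting error only, were at most 0.0174 percentage points to either side. Afatinib replicate 1 stood apart from its partner: across all tested genes it correlated at r = 0.935 and 0.939 with the untreated libraries at 0.931 with each gefitinib library and at 0.925 with afatinib replicate 2, whereas replicate 2 correlated at 0.965 and 0.947 with the gefitinib libraries. The afatinib values of the 10 genes are therefore also given without replicate 1.

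In untreated skin the output genes were the most abundant clock transcripts and Npas2 the least. On the deposited FPKM scale, which divides by gene length and so allows levels of different genes to be compared, Dbp stood at 85.7 ± 23.0 (SD, n = 2), Nr1d1 at 71.7 ± 23.8, Per1 at 24.2 ± 0.0822 and Cry2 at 14.4 ± 2.73. These were followed by Arntl (8.92 ± 3.42), Per2 (8.54 ± 3.21), Per3 (7.35 ± 2.44), Cry1 (6.59 ± 2.56), Clock (5.70 ± 0.804) and Npas2 (3.22 ± 0.391). The 2 libraries' values of Dbp and Nr1d1 overlapped, as did those of each neighbouring pair from Arntl down to Clock, so the order within these stretches is not resolved. In gefitinib skin Dbp (26.5 FPKM) and Nr1d1 (15.6 FPKM) had the highest means, although Nr1d1 overlapped Per1 (13.7 FPKM), and Npas2 (1.33 FPKM) the lowest, while Cry1 stood at 8.32 FPKM beside Cry2 at 8.40 FPKM. In afatinib skin the order of means again opened with Dbp (81.9 FPKM) and Nr1d1 (48.9 FPKM) and closed with Npas2 (1.38 FPKM), and Cry2 (12.0 FPKM) had a higher mean than Per1 (9.63 FPKM), with overlapping libraries.

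**Figure D1:**
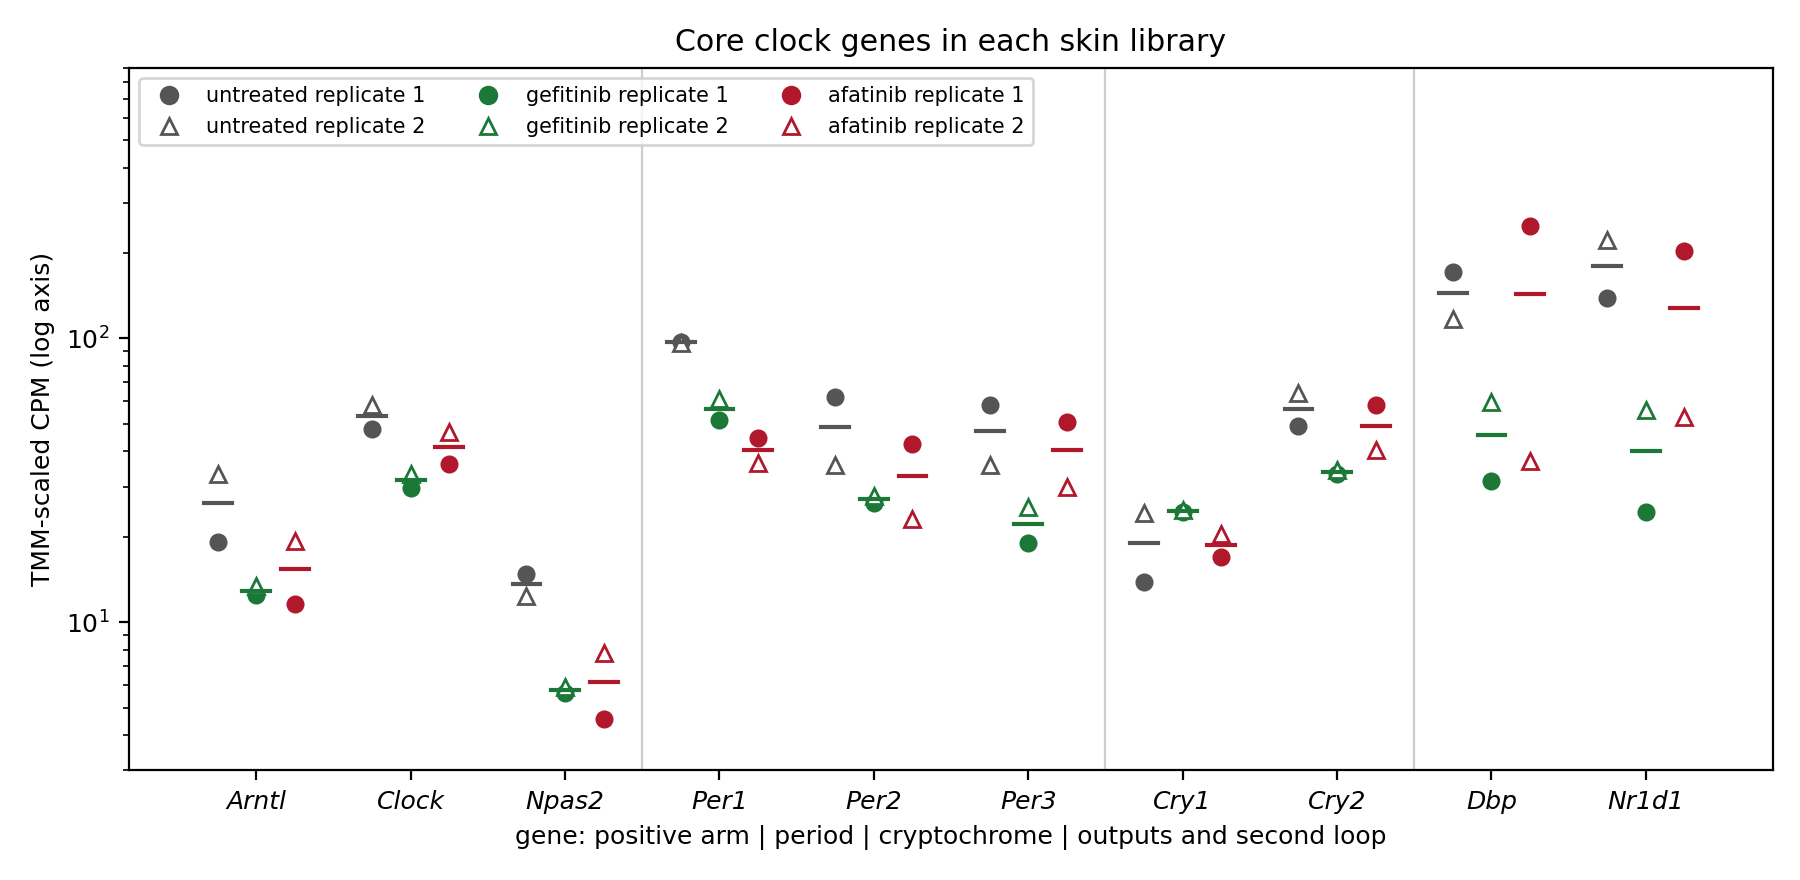
TMM-scaled CPM of the 10 clock genes (log axis), grouped by role, with 1 point per library (filled circle, replicate 1; open triangle, replicate 2), coloured by group, and a bar at each group mean (n = 2). For Clock, Npas2 and Per1 all 4 inhibitor libraries lie below both untreated libraries, as for 18.8% of all tested genes. For Dbp and Nr1d1 the afatinib libraries lie far apart.

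Levels of 1 gene across libraries are given below as CPM, the counts of a gene relative to its library's total after scaling by the trimmed mean of M values (TMM), a scaling that assumes most genes to be unchanged. Gene positions are those of the authors' annotation, of a build that the labels do not name and that need not match the RefSeq windows above. Among the activators, Npas2 (ENSRNOG00000013408, chromosome 9, 45901741 to 46081880, + strand), a Clock paralogue that also pairs with ARNTL, fell in inhibitor-treated skin in the mean of both drugs. Its 2 libraries stood at 14.8 and 12.4 CPM in untreated skin, at 5.61 and 5.91 in gefitinib skin and at 4.55 and 7.79 in afatinib skin, so that all 4 inhibitor libraries lay below both untreated ones, as they did for 18.8% of all genes. The log2 fold change of the mean of both inhibitors over untreated was −1.19 ± 0.31 (SE; edgeR quasi-likelihood test, Benjamini-Hochberg adjusted p = 0.0423). Against untreated skin singly it was −1.24 ± 0.37 with gefitinib (adjusted p = 0.0584) and −1.13 ± 0.37 with afatinib (adjusted p = 0.135), and neither passed the threshold of 0.05. Without scaling between libraries beyond their totals, the combined change was −0.50 with an adjusted p of 0.447, and the call was lost.

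Arntl itself (ENSRNOG00000014448, chromosome 1, 178039063 to 178137465, + strand), the partner required by both CLOCK and NPAS2, stood at 19.2 and 33.2 CPM in untreated skin, 12.4 and 13.4 in gefitinib skin and 11.6 and 19.2 in afatinib skin. The gefitinib libraries lay below both untreated libraries, and afatinib replicate 2 lay level with untreated replicate 1. The log2 fold changes were −1.02 ± 0.37 for gefitinib (adjusted p = 0.0931) and −0.76 for afatinib (adjusted p = 0.278). Clock, which encodes the more widely studied partner of ARNTL, stood at 47.9 and 58.2 CPM untreated, 29.8 and 33.3 with gefitinib and 36.2 and 46.9 with afatinib. Every inhibitor library was below both untreated libraries for Clock, by a margin that in afatinib replicate 2 was small. Its log2 fold changes were −0.75 ± 0.25 for gefitinib (adjusted p = 0.0752) and −0.35 for afatinib (adjusted p = 0.440).

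Per1 had the smallest adjusted p of the 10 genes with afatinib and in the mean of both drugs. This gene (ENSRNOG00000007387, chromosome 10, 55687050 to 55695994, + strand) encodes a repressor of the ARNTL pair and is also induced acutely by cyclic AMP and glucocorticoid signals. It stood at 97.3 and 96.4 CPM in untreated skin, 51.7 and 60.9 in gefitinib skin and 44.6 and 36.2 in afatinib skin. The untreated pair was tight, and all 4 inhibitor libraries were lower, including afatinib replicate 1. Per1 fell with afatinib by 1.26 ± 0.24 on the log2 scale, a 2.39-fold difference (adjusted p = 0.0412), and was the only 1 of the 10 genes to pass in that comparison, in which 3.98% of all genes passed and 0.372% passed as lower. It also fell in the mean of both inhibitors, by 1.02 ± 0.20 (adjusted p = 0.0206), with Npas2 the other of the 2 genes called, where 16% of all genes passed and 4.93% passed as lower. Its gefitinib value was −0.78 ± 0.24 (adjusted p = 0.0615).

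The afatinib call for Per1 was sensitive to the fit. In edgeR it held with DESeq2 size factors (adjusted p = 0.0415), with TMM scaling that left out the muscle markers (adjusted p = 0.0413) and with no filter on low counts (adjusted p = 0.00815). The DESeq2 Wald test also called it (adjusted p = 0.00051). It held without afatinib replicate 1 (−1.42, adjusted p = 0.0125), with the muscle share of that library at 15.4% and of its partner at 5.39%, but not with scaling to library totals (−0.68, adjusted p = 0.186), with limma-voom (adjusted p = 0.0722), in a fit of the untreated and afatinib libraries alone (adjusted p = 0.0866) or when any other library was left out (adjusted p = 0.0852 to 0.223). It was also lost with the replicate block. The direction of Per1 was negative in each of these fits. The calls of Per1 and Npas2 in the mean of both drugs were lost with scaling to library totals and when any untreated or gefitinib library was left out. That of Npas2 was also lost with the replicate block. Leaving out an untreated library left few calls over all genes with gefitinib, with afatinib and in the mean of both drugs. Leaving out a gefitinib library also lowered the number of calls over all genes in each of these comparisons.

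The other period genes, both repressors in the same loop, varied widely between the untreated libraries. Per2 stood at 62.0 and 35.8 CPM untreated, 26.3 and 27.8 with gefitinib and 42.5 and 23.0 with afatinib. Per3 stood at 58.2 and 35.9 CPM untreated, 18.9 and 25.4 with gefitinib and 50.9 and 30.0 with afatinib. For both genes the gefitinib libraries lay below both untreated ones, afatinib replicate 1 lay between the untreated libraries and afatinib replicate 2 lay below them. The log2 fold changes with gefitinib were −0.85 ± 0.38 for Per2 (adjusted p = 0.145) and −1.09 ± 0.36 for Per3 (adjusted p = 0.0767), and with afatinib −0.58 (adjusted p = 0.406) and −0.22 (adjusted p = 0.749).

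The cryptochromes, which carry most of the repression of the ARNTL pair, had values of opposite sign in gefitinib skin. Cry1 stood at 13.8 and 24.2 CPM untreated, 24.4 and 24.9 with gefitinib and 16.9 and 20.5 with afatinib, the only member of the 10 with both gefitinib libraries above both untreated ones, there by a narrow margin. Cry2 stood at 49.1 and 63.9 CPM untreated, 33.2 and 34.4 with gefitinib and 58.2 and 40.4 with afatinib. Neither passed in any comparison: the gefitinib log2 fold changes were 0.37 ± 0.32 for Cry1 (adjusted p = 0.415) and −0.74 ± 0.27 for Cry2 (adjusted p = 0.0966), and those of afatinib were −0.02 (adjusted p = 0.974) and −0.20 (adjusted p = 0.697). The ratio of Cry1 to Cry2 counts within a library, which no scaling between libraries can move, was 0.282 and 0.379 in untreated skin, 0.736 and 0.723 in gefitinib skin and 0.291 and 0.508 in afatinib skin. Afatinib replicate 1 thus lay among the untreated libraries and replicate 2 between them and the gefitinib pair; the difference in this ratio was not tested.

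The output arm had the widest range. Dbp (ENSRNOG00000021027, chromosome 1, 101687855 to 101692846, + strand), which encodes a PAR bZIP transcription factor, stood at 172 and 117 CPM in untreated skin, 31.4 and 59.7 in gefitinib skin and 250 and 36.8 in afatinib skin. Nr1d1 (ENSRNOG00000009329, chromosome 10, 86683875 to 86690815, - strand) stood at 139 and 222 CPM untreated, 24.5 and 55.8 with gefitinib and 204 and 52.9 with afatinib. Both genes were lower in the gefitinib libraries and in afatinib replicate 2 than in any untreated library, whereas afatinib replicate 1 was above both untreated libraries for Dbp and between them for Nr1d1. The gefitinib log2 fold changes, the largest of the set, were −1.66 ± 0.79 for Dbp (adjusted p = 0.169) and −2.17 ± 0.68 for Nr1d1 (adjusted p = 0.0654). The afatinib values were −0.01 ± 0.77 (95% interval −1.82 to 1.80, adjusted p = 0.993) and −0.49 ± 0.65 (−2.03 to 1.04, adjusted p = 0.686).

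Those afatinib values average libraries that differed by 6.78-fold for Dbp and 3.85-fold for Nr1d1, replicate 1 being the higher. On the log2 scale these gaps were 2.76 and 1.95, where the median gene differed by 0.52 between the same libraries. Without afatinib replicate 1 the afatinib values were −1.98 for Dbp (adjusted p = 0.0309) and −1.78 for Nr1d1 (adjusted p = 0.0668), close to the gefitinib ones; without replicate 2 they were 0.73 (adjusted p = 0.531) and 0.11 (adjusted p = 0.950). A lone library is assumed in these fits to vary like the other groups. The gefitinib libraries also differed from each other beyond counting error, by 1.90-fold for Dbp (95% interval 1.74 to 2.08) and 2.28-fold for Nr1d1 (2.07 to 2.51). Nr1d1 lies on the minus strand and overlaps Thra, on the plus strand, by 1059 bases; no label names the strand setting of the counting, so reads from the overlap cannot be told apart.

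The levels of Dbp and Nr1d1 moved with the skeletal muscle share across the 6 libraries. The 3 libraries with 4.90% to 8.60% of counts from muscle genes held 31.4 to 59.7 CPM of Dbp and 24.5 to 55.8 CPM of Nr1d1, and the 3 with 15.4% to 19.8% held 117 to 250 CPM and 139 to 222 CPM. Per1 did not split in that way, at 44.6 CPM in afatinib replicate 1 with its high muscle share. Hair follicle and cell cycle shares divided the libraries in the same places, in the opposite direction: the 3 libraries with much muscle held 0.00689% to 0.130% and 0.00946% to 0.0409%, and the other 3 held 0.542% to 0.822% and 0.119% to 0.133%. The muscle, hair follicle and cell cycle shares also separated the 4 inhibitor libraries from both untreated ones, as the Per1 level did. Other lists made that second division too. Neutrophil markers (9 of 9) held 0.0933% to 0.242% against 0.00053% to 0.00057% untreated. Schwann cell markers (8 of 8) held 0.0141% to 0.0284% against 0.0716% to 0.0973%. Keratinocyte markers held 0.237% to 0.628% against 0.0789% to 0.129%. Fibroblast markers (9 of 9) held 0.783% to 1.52% untreated, 0.139% to 0.797% with gefitinib and 0.456% to 0.792% with afatinib. Endothelial markers (7 of 8) held 0.0343% to 0.0384%, 0.00996% to 0.0315% and 0.0290% to 0.0387% in the same order. These last lists followed neither division. Adipocyte markers (8 of 8) held 0.0391% to 0.0484% in the libraries with much muscle and 0.0489% to 0.145% in the others, a narrow gap. The part of tissue content in any of these results was not tested.

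**Figure D2:**
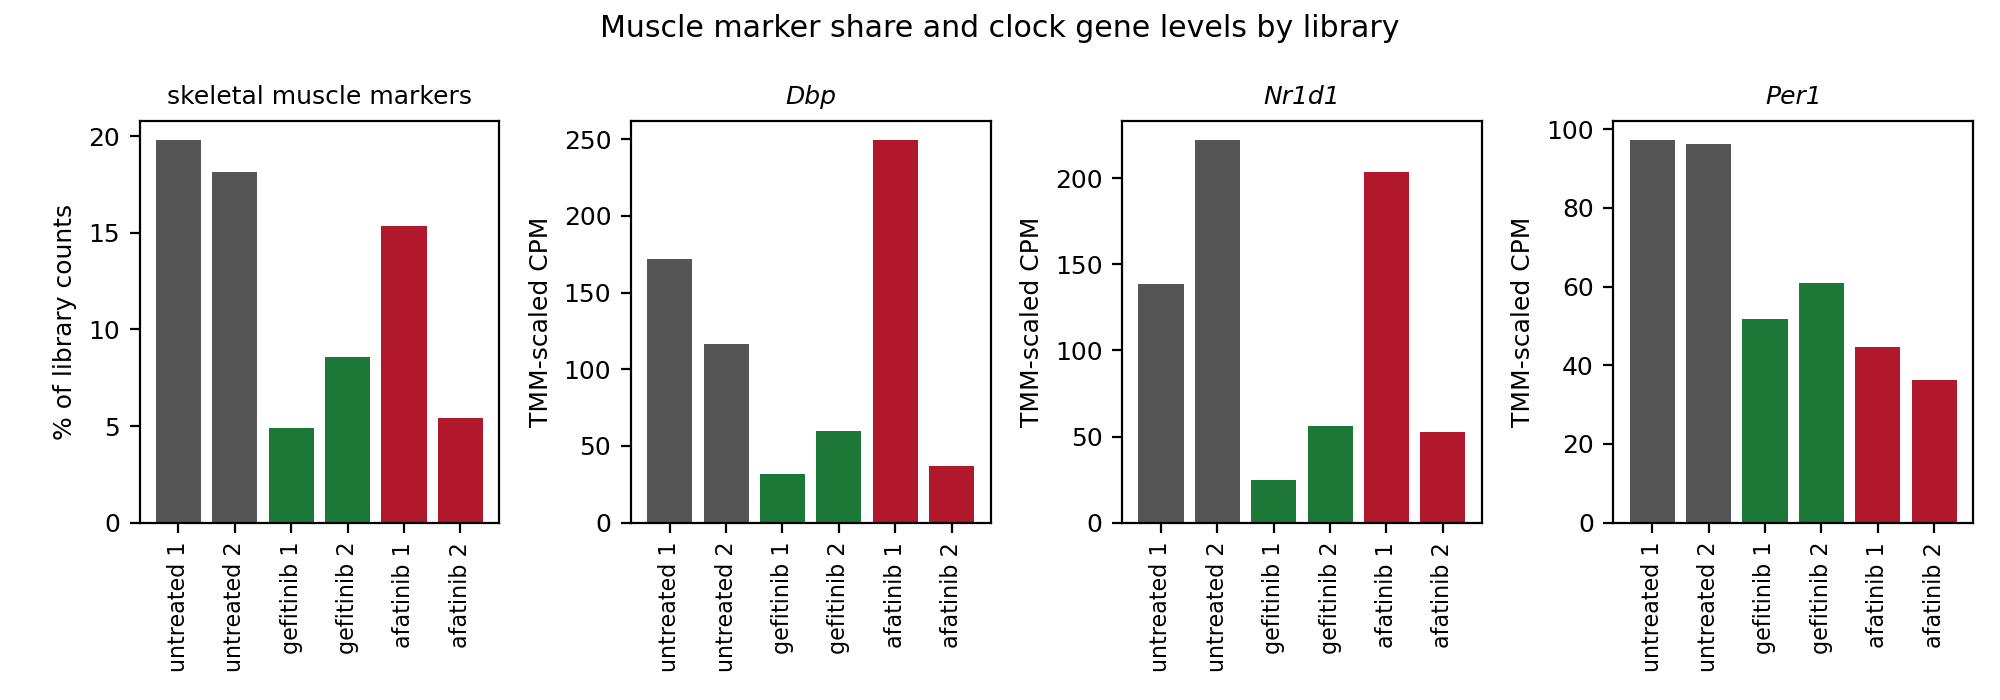
Bars give, for each library, the share of counts held by 13 skeletal muscle genes (percent, first panel) and the TMM-scaled CPM of Dbp, Nr1d1 and Per1 (other panels), coloured by group, with every axis starting at 0. Dbp and Nr1d1 are high in the 3 libraries with a muscle share of 15.4% or more and low in the 3 at 8.60% or less, while Per1 in afatinib replicate 1 stays with the other inhibitor libraries.

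On TMM-scaled CPM, 9 of the 10 genes had both gefitinib libraries below both untreated ones, and Cry1 had both above. Of all tested genes, 33.9% lay below and 38.8% above. These positions can change with the scaling between libraries. None of the 10 passed the edgeR test there, against 17.7% of all genes, 12.3% as higher and 5.45% as lower (2013 higher and 893 lower, or 3071 and 191 with scaling to library totals). At an unadjusted p under 0.05 there were 7, all lower, against 15.9% of all genes, and DESeq2 called 4 as lower (12.1% of all genes) and limma-voom 0 (5.26%). The median log2 fold change of the 10 genes was −0.94 and that of all tested genes 0.04. Scaled to library totals, these medians were −0.26 and 0.73, and 1 of the 10 had an unadjusted edgeR p under 0.05. The gefitinib count depended on the afatinib libraries, which share in the estimate of spread: it was 8 without afatinib replicate 1, 9 without afatinib replicate 2 and 8 in a fit of the untreated and gefitinib libraries alone, in each case all lower, where 12.7%, 15.1% and 14% of all genes passed as lower. In the fit without afatinib replicate 1 the adjusted p was 0.0137 for Nr1d1, 0.0168 for Dbp, 0.0190 for Npas2 and 0.0254 for Per1, and Arntl, Clock, Per3 and Cry2 also passed.

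In afatinib skin all 10 values were negative under TMM scaling, with a median of −0.42 against 0.09 for all genes. Clock, Npas2 and Per1 had both afatinib libraries below both untreated ones, as did 21.8% of all genes. Scaled to library totals alone, the median of all genes moved to 0.73 with gefitinib and 0.71 with afatinib, and the afatinib values of Clock (0.30), Per3 (0.33), Cry1 (0.60), Cry2 (0.35) and Dbp (0.36) turned positive, each still below that median. Without afatinib replicate 1 the afatinib values were −0.45 for Arntl, −0.18 for Clock, −0.81 for Npas2, −1.09 for Per2, −0.65 for Per3, 0.10 for Cry1 and −0.49 for Cry2, none of which passed (adjusted p between 0.0760 and 0.863). In that fit Per1 stood at −1.42 and Dbp at −1.98. In the mean of both drugs, values were then −1.02 for Npas2, −1.10 for Per1, −0.97 for Per2 and −0.87 for Per3. Those of Cry2, Dbp and Nr1d1 were −0.62, −1.82 and −1.97. Replicate 1 was the afatinib library with the higher Dbp and Nr1d1 levels, so leaving it out lowers their values. The median of the 10 in the mean of both drugs was −0.92 without afatinib replicate 1 and −0.65 without replicate 2. The untreated libraries serve both inhibitor comparisons, so like values in the 2 are not independent.

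**Figure D3:**
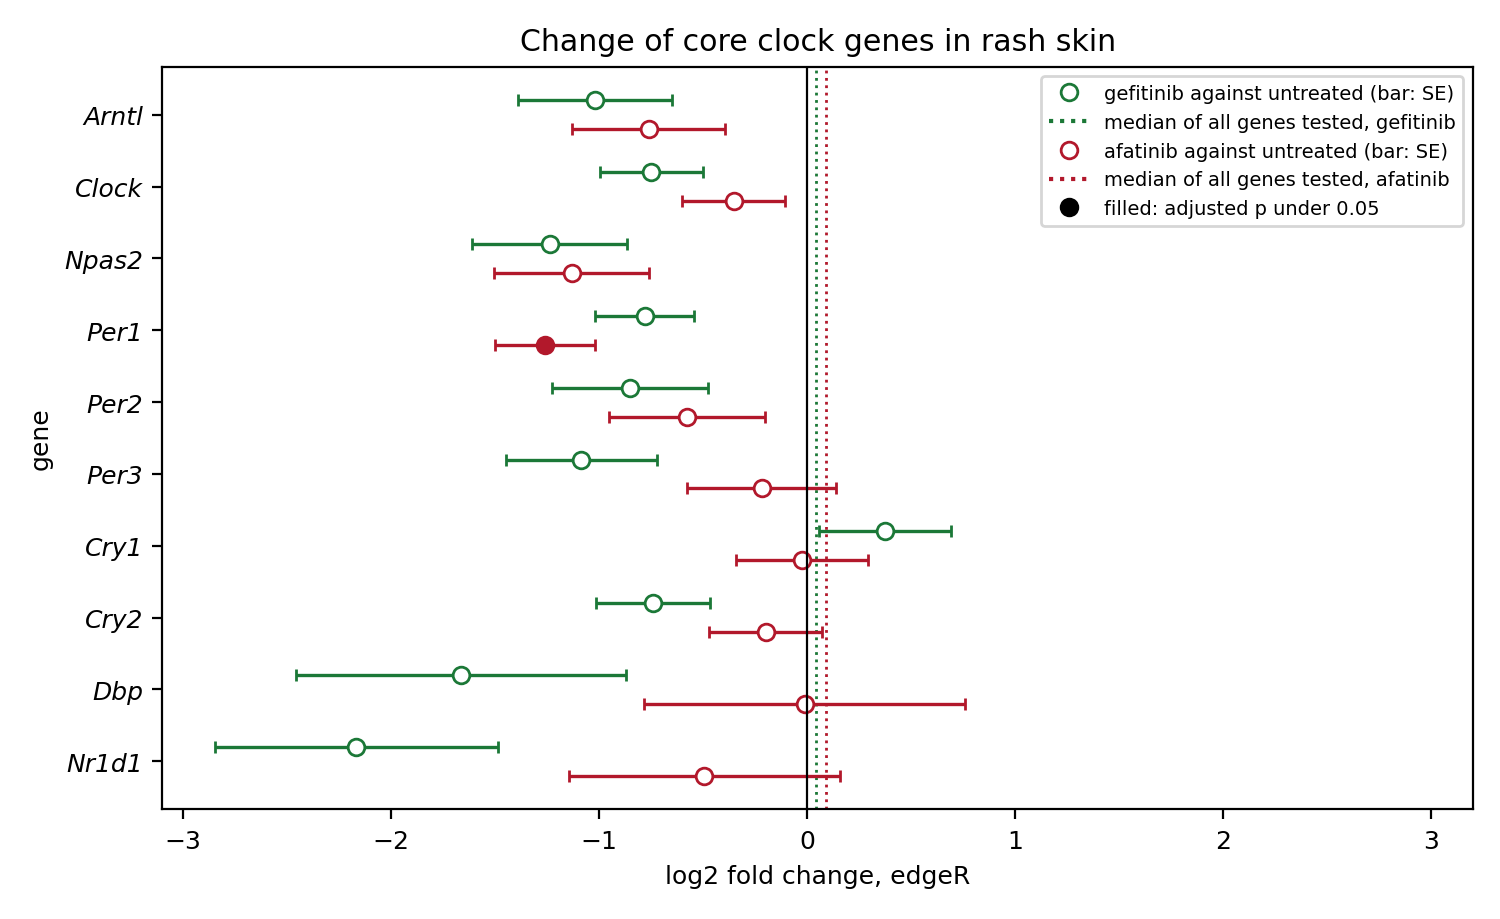
Log2 fold change over untreated skin of each clock gene with gefitinib and with afatinib (points, with SE bars, edgeR on all 6 libraries), with dotted lines at the median of all tested genes and filled points where the adjusted p was under 0.05. All values but that of Cry1 with gefitinib lie below 0, the bars of Dbp and Nr1d1 are the longest, and Per1 with afatinib is the filled point.

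The activators were next set against the rest of the set within each library, a comparison that scaling between libraries cannot move. The mean log2 CPM of Arntl, Clock and Npas2 minus that of the other 7 genes was −1.47 and −1.17 in untreated skin, −1.16 and −1.47 in gefitinib skin and −2.37 and −0.77 in afatinib skin. The untreated and gefitinib libraries shared 1 range, and the afatinib libraries lay on either side of it. The group difference from untreated was 0.0086 with gefitinib and −0.25 with afatinib, both smaller than the pooled SD of 0.68, most of which comes from the afatinib pair. Without afatinib replicate 1 the afatinib difference was 0.55, larger than the gap within the untreated or the gefitinib pair; it rests on 1 library and was not tested.

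Single pairs of opposed genes varied more. The ratio of Dbp to Arntl counts was 8.98 and 3.51 in untreated skin, 2.52 and 4.46 in gefitinib skin and 21.6 and 1.91 in afatinib skin. That of Nr1d1 to Arntl was 7.23 and 6.70 untreated, 1.97 and 4.17 with gefitinib and 17.6 and 2.75 with afatinib. Nr1d1 was thus lower relative to Arntl in both gefitinib libraries than in either untreated library, whereas the Dbp ratios of these groups overlapped. Afatinib replicate 1 had the highest ratios of all 6 libraries for both pairs and its partner the lowest for Dbp and the next to lowest for Nr1d1.

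**Figure D4:**
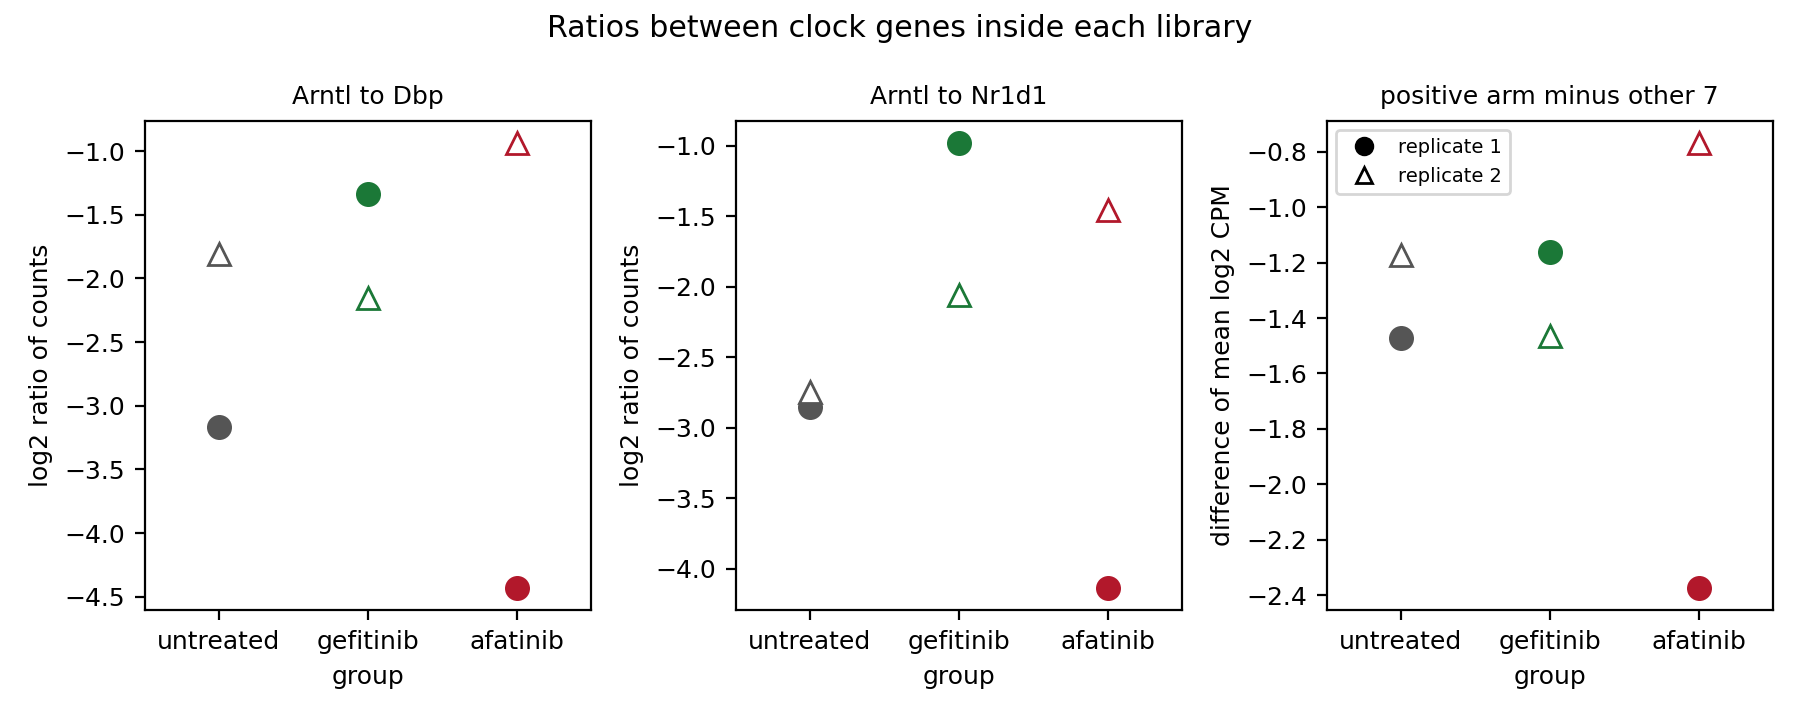
Log2 ratio of Arntl to Dbp counts, log2 ratio of Arntl to Nr1d1 counts, and mean log2 CPM of the 3 activators minus that of the other 7 genes, by group, with 1 point per library (filled circle, replicate 1; open triangle, replicate 2). Afatinib replicate 1 has the lowest value in all 3 panels, and for Arntl to Nr1d1 both gefitinib libraries lie above both untreated ones.

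Afatinib and gefitinib skin were also compared directly, at doses that differed. Neither any of the 10 clock genes nor any other gene passed the adjusted threshold (0%) by edgeR, and no clock gene passed by DESeq2 or limma-voom. Nr1d1 and Per3 had an unadjusted p under 0.05, as did 5.77% of all genes, and both were higher with afatinib, as 3.82% of all genes were. The log2 differences were 1.67 (95% interval 0.10 to 3.24, adjusted p = 0.787) for Nr1d1, 1.65 (−0.20 to 3.51) for Dbp, 0.87 for Per3 and −0.48 (−1.04 to 0.08) for Per1. Without afatinib replicate 1 the values were 0.39 for Nr1d1, −0.31 for Dbp, 0.43 for Per3 and −0.64 for Per1. The intervals are wide, so these data do not show that the groups were alike.

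Beyond the 10 genes, 26 further clock genes were listed, all were in the files, and 24 passed the filter on low counts and were tested. Replication-linked partners went the other way from the core genes. Timeless, whose protein works at replication forks with that of Tipin and is related to the fly clock gene, rose from 3.04 and 5.24 CPM in untreated skin to 27.7 and 29.3 with gefitinib and 12.9 and 23.3 with afatinib. Its log2 fold changes were 2.78 ± 0.41 (adjusted p = 0.0126) and 2.12 ± 0.40 (adjusted p = 0.0409). Tipin rose with gefitinib, from 8.64 and 8.15 CPM to 17.7 and 20.4 (1.18, adjusted p = 0.0323), and stood at 12.7 and 16.2 with afatinib (0.78, adjusted p = 0.163). The share of cell cycle genes was higher in the same libraries, at 0.0409% to 0.133% against 0.00946% to 0.0142% untreated; its part in the rise was not tested.

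Of the remaining listed genes, 2 fell with gefitinib. Nampt, the rate-limiting enzyme of NAD salvage and an E-box target, fell from 160 and 179 CPM to 54.9 and 78.0, by 1.35 on the log2 scale (adjusted p = 0.0315). With afatinib it stood at 91.4 and 60.7 CPM (−1.16, adjusted p = 0.0871), and in the mean of both drugs it fell by 1.25 (adjusted p = 0.0240). Bhlhe41, which encodes the E-box repressor DEC2, fell from 11.1 and 23.7 CPM to 3.45 and 5.60 with gefitinib, by 1.95 on the log2 scale (adjusted p = 0.0438) and stood at 18.0 and 8.98 with afatinib. Its gefitinib call was lost with limma-voom, and those of Bhlhe41 and Nampt with scaling to library totals and with the replicate block. Those of Bhlhe41, Nampt and Tipin were lost when any untreated or gefitinib library was left out. The Timeless call with gefitinib was lost only without an untreated library among the fits run, and its afatinib call with limma-voom, in a fit of those groups alone and without any library other than afatinib replicate 1. In all, 2 of the 24 genes passed as higher and 2 as lower with gefitinib, where 12.3% and 5.45% of all genes did, 1 as higher with afatinib, and 2 as higher and 1 as lower in the mean of both; against each other the drugs gave 0. Over all genes, 3.6% passed as higher with afatinib and 11% in the mean of both, where with scaling to library totals the mean gave 3126 higher and 225 lower calls in place of 1810 and 808. The median log2 fold change of the 24 was −0.59 with gefitinib and −0.40 with afatinib.

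Among the paralogues of the output genes, Tef, a PAR bZIP factor like Dbp, stood at 173 and 164 CPM untreated, 43.6 and 71.7 with gefitinib and 144 and 52.9 with afatinib. Nr1d2, which encodes REV-ERB beta, stood at 164 and 149 CPM, 41.3 and 70.6, and 130 and 56.4 in the same order. Afatinib replicate 1, the library with 15.4% muscle counts, was below both untreated libraries but above the other inhibitor libraries for both genes. Hlf, the third PAR bZIP factor, stood at 1.52 and 3.14 CPM untreated, 0.627 and 0.525 with gefitinib and 2.53 and 1.54 with afatinib, so that both afatinib libraries lay within the untreated range. None of the 3 passed: the gefitinib log2 fold changes were −1.55 for Tef (adjusted p = 0.0668) and −1.48 for Nr1d2 (adjusted p = 0.0596), beside −2.01 for Hlf (adjusted p = 0.0618).

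Usp2, a deubiquitinase of clock proteins, stood at 45.5 and 70.3 CPM untreated, 15.6 and 25.2 with gefitinib and 35.6 and 15.0 with afatinib, and its change over both drugs was −1.35 (adjusted p = 0.0521). Rora, an activator at the ROREs that REV-ERB proteins repress, had values of −0.86 with gefitinib and −1.09 with afatinib. Nfil3, which opposes DBP at D-boxes, had −0.54 and −1.03, and Bhlhe40, the paralogue of Bhlhe41, −1.27 and −0.67. Values for Cipc, a CLOCK-binding repressor, were −0.62 and −0.43, and those for the ubiquitin ligase gene Btrc −0.73 and −0.63. None of these passed in any of the 4 comparisons. The cell cycle regulators Wee1 (0.56 and 0.41) and Cdkn1a (0.80 and 0.72) had positive values that did not pass. Arntl2, the Arntl paralogue, had 0.30 and 0.53, which did not pass either and rest on few counts. Its libraries held 8 and 10 counts untreated, 18 and 16 with gefitinib and 1 and 39 with afatinib. The afatinib value of Arntl2 was −3.06 without afatinib replicate 2 and 1.39 without replicate 1, so its sign is not resolved.

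**Figure D5:**
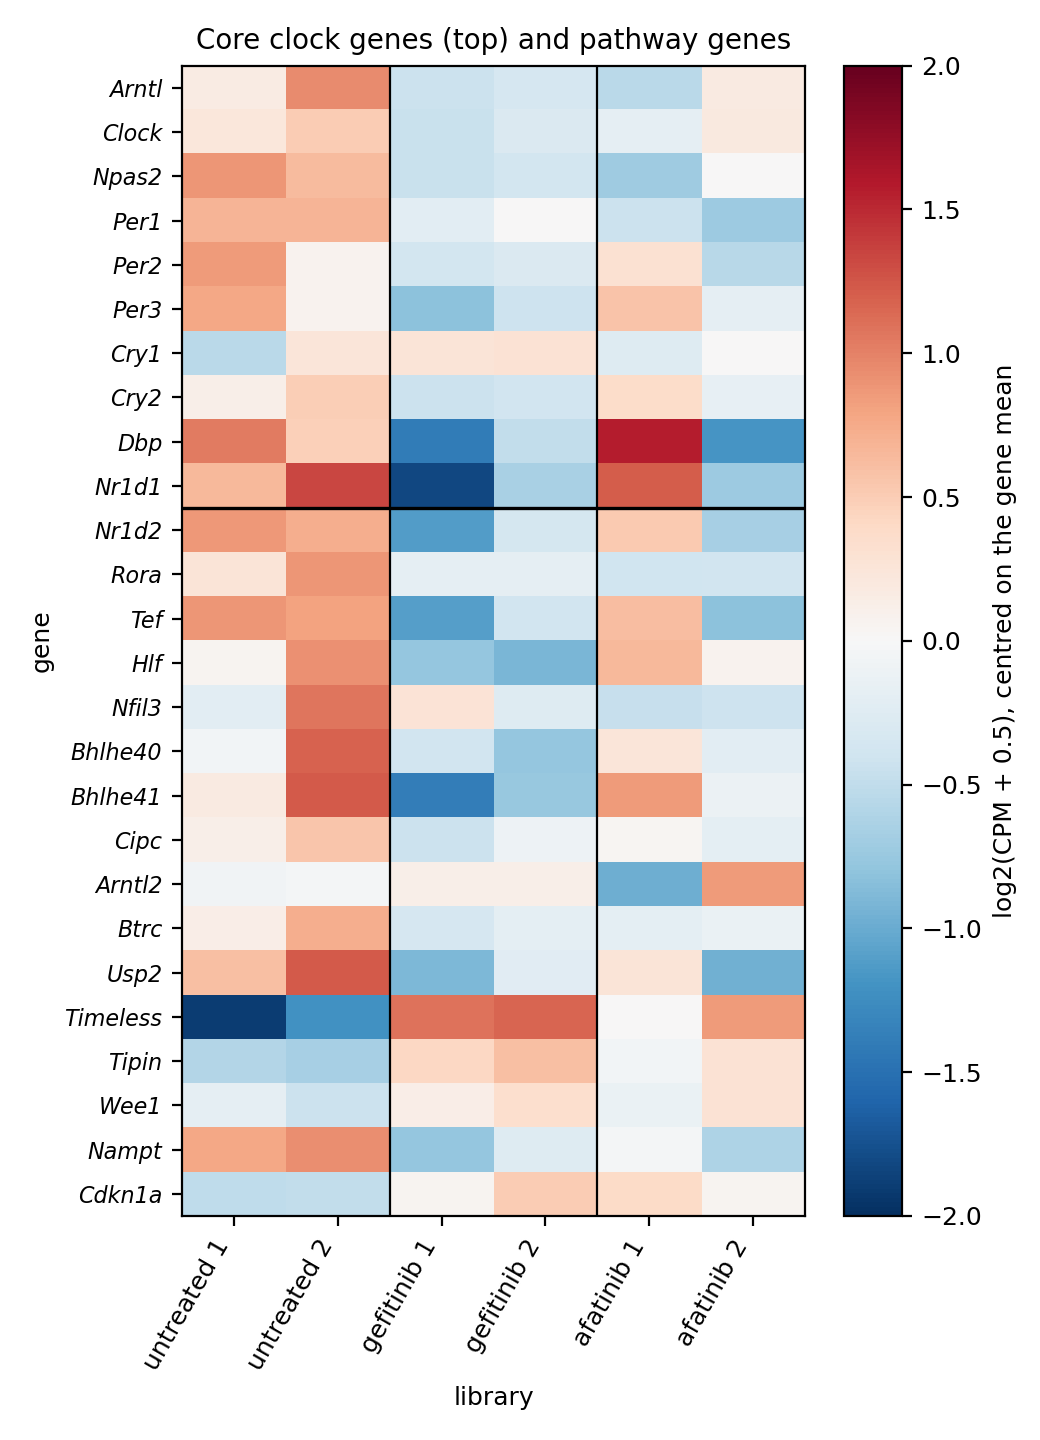
Log2 of TMM CPM plus 0.5 for the 10 clock genes (above the line) and named genes of the wider clock list (below it), centred on each gene's mean over the 6 libraries (colour, red above and blue below the mean), with 1 column per library. Afatinib replicate 1 shares the sign of the untreated columns for Dbp, Nr1d1, Nr1d2 and Tef and that of afatinib replicate 2 for Per1, and Timeless and Tipin run opposite to most rows.

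Genes with a profile most like those of an activator and an output were then sought among 12532 named genes, by the root mean square difference of centred log2 CPM over the 6 libraries. Nearest to Arntl were Cyld (0.0483), Atg13 (0.0918), Wdfy1 (0.142), Tpm3 (0.150) and Dot1l (0.167), none of them a listed clock gene. Of the listed clock genes, Btrc ranked 31st (0.230) and Clock 43rd (0.242). Rora ranked 117th, Cipc 410th and Npas2 417th. Nearest to Dbp were Srpk3 (0.224), Mb (0.230), Rpl3l (0.269) and Efcab6 (0.271). Mb, which encodes myoglobin, is on the muscle marker list, and Srpk3 and Rpl3l are known for their expression in striated muscle. Among clock genes Tef ranked 88th (0.462), Nr1d1 126th (0.488) and Nr1d2 157th (0.509) in likeness to Dbp. These ranks describe 6 libraries that share depth, scaling and tissue content.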

How the data were processed

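Gene counts and FPKM values, as the authors deposited them, were used for 6 libraries of total RNA (TruSeq kit, per the labels' protocols); no sample column was left unmapped. The submitters' processing notes list DESeq2 1.16.1, featureCounts 1.5.0-p3 and HISAT2 2.0.5, but no source used here names the build, annotation or strand setting. The deposited FPKM served to rank genes by level. It was also an alternative scale for the difference between the activators and the rest of the set.

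Counts were tested with edgeR 4.0.16 (R 4.3.3; quasi-likelihood, TMM, default low-count filter, 1 term per group over all 6 libraries, 3 residual degrees of freedom) with Benjamini-Hochberg adjustment over 16398 genes and a threshold of 0.05. Alternatives were other scalings, no filter, DESeq2 1.42.0, limma-voom 3.58.1, a replicate block, the compared groups alone and each library left out. CPM used for profiles had a prior count of 2, and likeness required a mean of 1 CPM. From the wider clock list, each gene past the threshold in any comparison was named, plus up to 3 per sublist with the smallest unadjusted p; for likeness, the 5 nearest genes. A few genes under these rules are not reported here. The members and lists were chosen with earlier results of these data known. Depth ran from 17206456 to 22086673 counts per library.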

Additional observations from a re-analysis of the deposited data

How the results depend on the processing

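Called members of the 10, all lower: against 0 with gefitinib, DESeq2 size factors gave 1, no filter on low counts 5, the DESeq2 Wald test 4 and the compared groups alone 8, where the share of all genes called lower was 5.9%, 8.68%, 12.1% and 14% (5.45% in the reported fit). Against 1 with afatinib, scaling to library totals, limma-voom and the compared groups alone gave 0 (0.189%, 0.0122% and 0.0448% of all genes), and the DESeq2 Wald test 2 (2.89%). Against 2 in the mean of both drugs, scaling to library totals gave 0 (1.37%) and no filter 4 (7.72%); the Wald test gave 3 (10.3%), within 1.5 times. Afatinib against gefitinib gave 0 with the other scalings, no filter, DESeq2, limma-voom, the replicate block and the compared groups alone. With single libraries left out, the median log2 fold change of the 10 genes ranged from −1.07 to −0.90 with gefitinib. It ranged from −0.73 to −0.24 with afatinib and from −0.95 to −0.65 in the mean. The number of calls over all genes moved widely between those fits, which leave 1 library in a group.

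Of the 24 further clock genes, 4 passed with gefitinib. No filter and the Wald test gave 9 each and the compared groups alone 10. Over all genes these fits gave 2616 higher and 1934 lower of 22290, 2578 and 2016 of 16672, and 3072 and 2214 of 15853. The reported fit gave 2013 and 893 of 16398. For afatinib (1 passed) scaling to library totals and the Wald test gave 2 each, no filter 3, limma-voom 0 and the compared groups alone 0. In all-gene calls, scaling to library totals gave 1250 higher and 31 lower of 16398, and the Wald test 1478 and 482 of 16672. No filter gave 1632 and 451 of 22290, limma-voom 32 and 2 of 16398, and the compared groups alone 44 and 7 of 15614. The reported afatinib fit gave 591 and 61 of 16398. In the mean (3 passed) no filter gave 8 and the Wald test 9. Over all genes the mean then gave 2479 higher and 1721 lower of 22290, and 2446 and 1717 of 16672. Its reported fit gave 1810 and 808 of 16398. Leaving out single libraries gave 0 to 10 with gefitinib, 0 to 6 with afatinib and 0 to 10 in the mean. The difference between the activators and the other 7 genes kept within the pooled SD of its value, except that leaving out single libraries took it from −1.05 to 0.55 for afatinib against untreated and from −1.06 to 0.55 for afatinib against gefitinib. The cause of these moves was not tested, except that a left-out library leaves fewer samples.

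The replicate numbers are shared between groups, and the deviations of same-numbered libraries correlated at 0.033, 0.037 and −0.17. With 2 libraries per group, these values cannot show whether same-numbered libraries had a batch in common. With the replicate block in edgeR the members called were 0 with gefitinib, 0 with afatinib and 1 in the mean, Per1. Npas2 had −1.21 in that mean (adjusted p = 0.060). Of the further clock genes, Timeless and Tipin passed with gefitinib, Timeless with afatinib, and Timeless and Nampt in the mean. Over all 16398 genes, 1602, 337 and 1411 passed as higher and 696, 32 and 620 as lower.

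The tests rest on 2 libraries per group and 3 residual degrees of freedom. Every member had at least 70 counts in each library; the effect of depth on the calls was not tested.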
